A study of Mus musculus with 8 samples.

Results

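The mouse carries its Hox genes in 4 clusters, Hoxa, Hoxb, Hoxc and Hoxd, and this account follows all of them through the sorted precursors of the kidney's ureteric bud. Members were taken by name, as every array probe annotated Hoxa, Hoxb, Hoxc or Hoxd with a paralogue number from 1 to 13 and nothing else. This gave 39 genes on 44 probes: 11 genes of Hoxa, 10 of Hoxb, 9 of Hoxc and 9 of Hoxd. Of these, 38 were among the 29544 genes tested, and Hoxc13 was not, since it was not well above background on any array.

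All cells came from ICR mouse embryos and were sorted for a GFP reporter, and each of the 8 sorted samples was put on its own array. Hoxb7-GFP cells, which mark the duct that gives rise to the ureteric bud (labelled WD, and called the duct here), were taken undivided at E8.75 (1 array), from a caudal and a rostral part at E9.5 (2 arrays), from a caudal and a rostral part at E10.5 (2 arrays), and from the bud itself at E11.5 (1 array). Wt1-GFP cells, intermediate mesoderm of the neighbouring nephron lineage, came from a caudal and a rostral part of the embryo at E9.5 (2 arrays). The E9.5, E10.5 and E11.5 Hoxb7-GFP labels add a selection against Flk1, a receptor of endothelial cells; the labels of the E8.75 and Wt1-GFP samples name none. GFP in the first reporter follows the Hoxb7 promoter and in the second Wt1, so a cell is in a sort only if that reporter is on. The labels do not say how many embryos went into a sample or whether parts of 1 group came from the same embryos.

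Hox genes encode homeodomain transcription factors that give the body axis its positional identity. Within a cluster they lie in the order of their paralogue numbers, low numbers are generally switched on earlier and reach further towards the head, and high numbers come on later and stay near the tail. Genes with the same number in different clusters are paralogues with overlapping roles. In the mouse kidney the paralogue 11 genes Hoxa11, Hoxc11 and Hoxd11 act together in the mesenchyme that induces the ureteric bud, and paralogue 10 genes act in the stroma. Hoxb7 is expressed along the duct itself, which is why its promoter is used as a duct reporter. The members are grouped here as anterior (1 to 3), central (4 to 8) and posterior (9 to 13).

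A level is the log2 processed signal of a probe minus the log2 of the 75th percentile signal of its array, so 0 is that percentile and a difference of 1 is 2-fold. Levels are compared between arrays for 1 probe and never between genes. The 75th percentile signal ran from 242.9 to 316.7 units over the arrays, and the correlation between arrays over all tested genes from 0.912 to 0.963. All 7 duct markers were well above background on the 6 Hoxb7-GFP arrays, and 5 and 6 of them on the caudal and rostral Wt1-GFP arrays; 6 of 7 were at least 2-fold higher in the duct at E9.5. Wt1 was at 4.01 (caudal) and 4.08 (rostral) in Wt1-GFP cells, against -6.92 to -0.20 in Hoxb7-GFP cells, whose highest value was the rostral E9.5 part. On that rostral E9.5 duct array the summed level of 6 neural tube markers was 6.51 and of the heart markers 2.36, against 1.40 to 4.40 and -4.07 to 1.90 on the other 7 arrays. The E8.75 array had the highest summed level of 5 endothelial markers (4.94, against 1.77 to 2.27 elsewhere) and of 5 endoderm markers (2.28, against -2.96 to 0.16).

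Most of the Hox complement was measurable everywhere. Of the 39 genes, 30 were well above background on all 8 arrays (76.9%), where 67.5% of the genes tested were. By array the number above background was 32 at E8.75, 36 and 34 in the caudal and rostral E9.5 duct, 33 and 32 in the caudal and rostral E10.5 duct, 34 in the E11.5 bud, and 35 and 34 in caudal and rostral Wt1-GFP cells. In the same order, 67.3%, 67.2%, 67.1%, 61.5%, 69.2%, 65.5%, 60.6% and 61.5% of all probes were above background. The dimmest spot above background was at -3.95 in the caudal and -4.76 in the rostral E10.5 duct. A drop-out on 1 array can therefore reflect that array's limit of detection. The genes that dropped out lay mostly at the posterior ends of the clusters. Hoxc11 was above background only in the caudal E9.5 duct (-4.40), Hoxc12 in the caudal E9.5 duct (-1.98) and the E11.5 bud (-4.0), and Hoxb13 only in the E11.5 bud (-3.68). Next to them within their clusters, Hoxc10 and Hoxb9 were above background on every array. Hoxb1, the gene that sets the identity of a hindbrain segment, was at the other end of its cluster and was above background only in Wt1-GFP cells, at -0.80 caudally and -2.63 rostrally, against -6.91 to -5.76 in the 6 Hoxb7-GFP samples. Hoxa4 was below background only in the E11.5 bud, Hoxd13 only in the caudal E10.5 duct, Hoxd11 at E8.75 and in the rostral E10.5 duct, and Hoxa11 on 4 arrays. A gene that passes the filter through a few arrays where it is high is bound to differ between arrays, so the main counts over the members are also given for the 30 genes measured throughout.

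**Figure D1:**
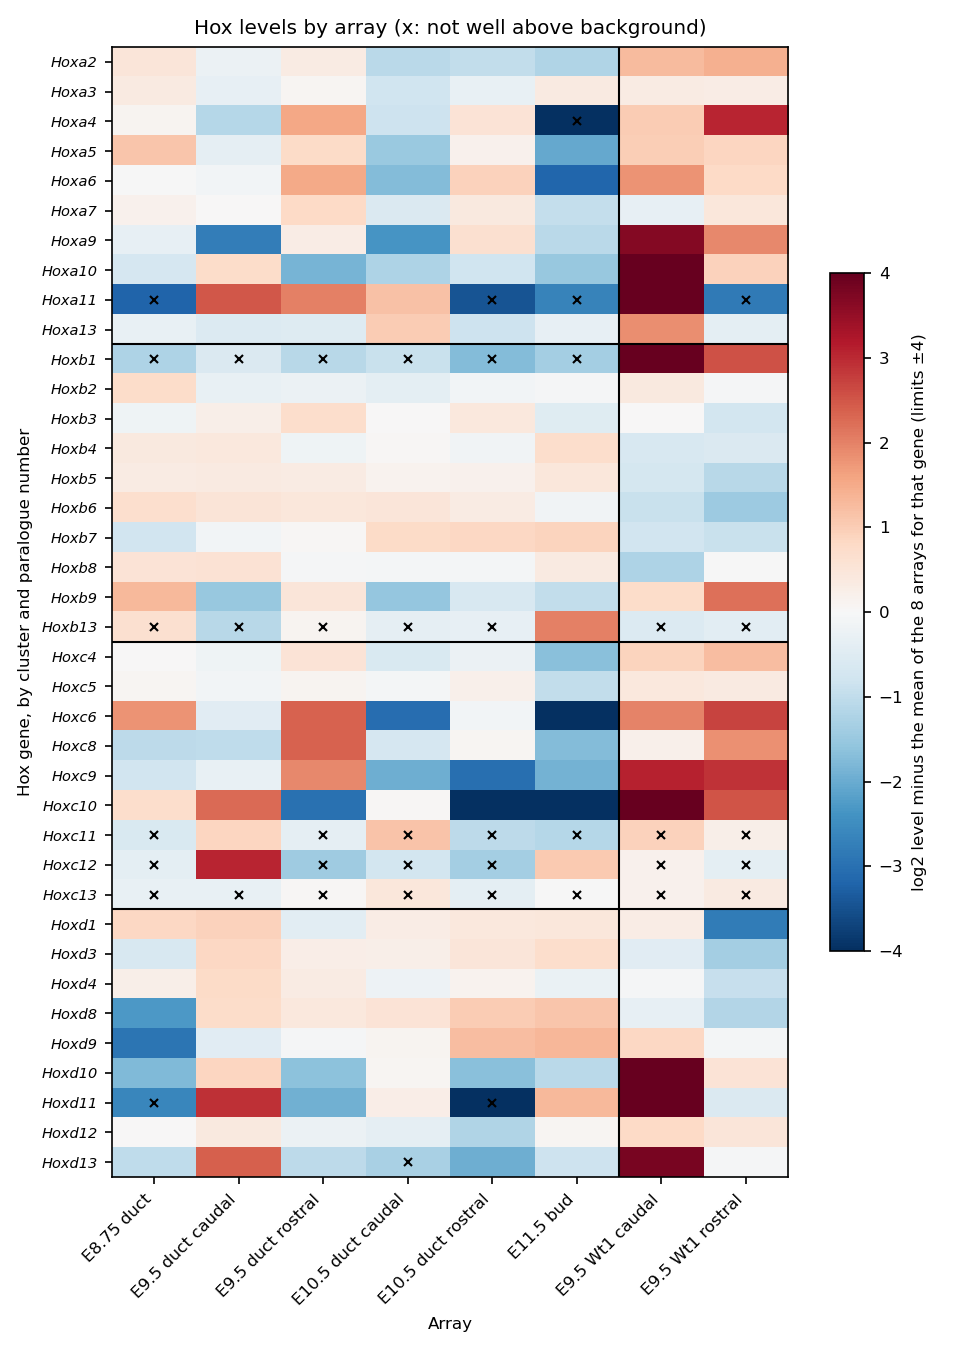
Level of each of 38 Hox genes on each array minus the gene's mean over the 8 arrays (log2, colour scale from -4 to 4); rows run by cluster and paralogue number, columns by stage with the caudal part left of the rostral, Wt1-GFP cells at the right, and a cross marks an array on which the gene was not well above background. The crosses gather at the posterior ends of Hoxb and Hoxc and at Hoxb1. Many of the deepest colours fall on the posterior genes of Hoxa, Hoxc and Hoxd, while Hoxb2 to Hoxb8 stay paler. Hoxa4 and Hoxc6 in the bud and Hoxb1 in caudal Wt1-GFP cells are also deep.

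The genome around some of these genes can be set beside the array values. RefSeq promoter windows of 300 bases, most of each upstream of a gene's start, were at hand for 22 of the 39 genes, as 24 windows on build GRCm38.p6. Windows are shown for Hoxd13, Hoxd11 and Hoxd10, which were higher caudally in the E9.5 duct and in Wt1-GFP cells below, and for Hoxa9, which went opposite ways in the reporters. Capitals mark matches to TTTATG or TTTATA on either strand, letters that Cdx homeodomain factors are known to bind; Cdx genes are set beside the Hox genes further on.
Hoxd13, chr2:74667975-74668274, + strand: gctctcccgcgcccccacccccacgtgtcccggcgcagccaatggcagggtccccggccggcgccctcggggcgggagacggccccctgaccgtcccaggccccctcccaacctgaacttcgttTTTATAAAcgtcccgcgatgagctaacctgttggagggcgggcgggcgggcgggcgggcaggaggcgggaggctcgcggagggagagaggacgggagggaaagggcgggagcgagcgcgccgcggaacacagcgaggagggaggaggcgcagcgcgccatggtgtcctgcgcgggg
Hoxd11 first window, chr2:74679308-74679607, + strand: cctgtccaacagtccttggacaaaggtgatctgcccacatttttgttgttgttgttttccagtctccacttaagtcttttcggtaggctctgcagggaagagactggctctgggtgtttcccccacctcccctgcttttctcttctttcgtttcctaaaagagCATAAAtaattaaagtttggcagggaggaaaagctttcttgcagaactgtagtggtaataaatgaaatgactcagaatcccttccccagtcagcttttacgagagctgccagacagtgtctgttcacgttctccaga
Hoxd11 second window, chr2:74682073-74682372, + strand: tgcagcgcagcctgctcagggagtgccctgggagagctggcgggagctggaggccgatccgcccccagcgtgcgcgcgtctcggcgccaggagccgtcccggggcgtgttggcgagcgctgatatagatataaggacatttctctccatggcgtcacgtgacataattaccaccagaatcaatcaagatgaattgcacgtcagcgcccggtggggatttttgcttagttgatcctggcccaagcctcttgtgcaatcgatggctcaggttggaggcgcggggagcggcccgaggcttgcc
Hoxd10, chr2:74691641-74691940, + strand: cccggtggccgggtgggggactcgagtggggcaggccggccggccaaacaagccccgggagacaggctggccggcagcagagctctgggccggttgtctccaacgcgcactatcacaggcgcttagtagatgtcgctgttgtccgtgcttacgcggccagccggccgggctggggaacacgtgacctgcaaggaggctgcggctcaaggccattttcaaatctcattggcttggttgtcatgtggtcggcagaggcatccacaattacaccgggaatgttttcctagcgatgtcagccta
Hoxa9, chr6:52227321-52227620, - strand: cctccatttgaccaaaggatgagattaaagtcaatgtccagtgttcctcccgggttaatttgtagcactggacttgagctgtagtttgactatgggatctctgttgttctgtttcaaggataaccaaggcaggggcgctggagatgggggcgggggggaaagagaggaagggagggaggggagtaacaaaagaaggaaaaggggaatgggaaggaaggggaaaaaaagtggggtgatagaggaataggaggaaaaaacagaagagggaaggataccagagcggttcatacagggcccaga
The Hoxd13 window held 2 matches, one on each strand and overlapping, the first Hoxd11 window held 1, and the windows of Hoxd10, Hoxa9 and the second of Hoxd11 held none. Over all, 7 of 24 Hox windows (29.2%) held a match, against 22.8% of the 32851 windows in the table, so the Hox windows were close to the background. Most matches were elsewhere: Hoxb8 held 4, Hoxd4 3 and Hoxa7 2.

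The caudal and rostral parts were compared in 3 pairs: the E9.5 duct, the E10.5 duct and E9.5 Wt1-GFP cells. Hoxc10, Hoxd10 and Hoxd11 stood far higher in the caudal part, paralogue 9 genes did not share this, several central genes of Hoxa and Hoxc stood lower, and Hoxb2 to Hoxb7 differed by under 1 on the log2 scale in every pair. Hoxc10, Hoxd10 and Hoxd11 were at least 2-fold higher caudally in all 3 pairs, 3 of 38 members (7.89%), where 0.25% of all genes tested were. Hoxa4 alone was at least 2-fold lower caudally in all 3 (2.63% of members, against 0.596% of all genes). Over the fit of all 3 pairs, 11 members were at least 2-fold higher caudally and 6 lower, where 2.79% and 5.38% of all genes were; among the 30 genes measured throughout the counts were 5 and 5. Counted by sign alone, 10 members were higher caudally in all 3 pairs (26.3%, with 15.2% of all genes) and 8 lower (21.1%, with 16.0%). No gene of any kind passed at adjusted p 0.05 (limma, lowest adjusted p 0.73). At unadjusted p under 0.05 there were 12 members (31.6%) and 6.79% of all genes. These p-values measure only how the caudal-rostral difference varied between the 3 pairs.

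Hoxc10, a gene of lumbar and hindlimb levels, was at 2.85 in the caudal and -2.39 in the rostral E9.5 duct, 0.63 and -3.39 in the E10.5 duct, and 6.17 and 3.1 in Wt1-GFP cells. The caudal part was the higher in each pair, but rostral Wt1-GFP cells lay above every duct sample, so caudal and rostral levels overlap across groups. The fitted difference was 4.11 ± 0.49 (SE), a 17.2-fold excess. Its paralogue Hoxd10 was at -1.28 caudally and -3.79 rostrally in the E9.5 duct, -2.08 and -3.82 in the E10.5 duct, and 2.52 and -1.60 in Wt1-GFP cells, a difference of 2.79 ± 0.54 (6.92-fold). The third paralogue 10 gene was less regular. Hoxa10 was at 0.05 caudally and -2.54 rostrally in the E9.5 duct and at 3.73 and 0.22 in Wt1-GFP cells, while the E10.5 duct gave -1.92 and -1.49.

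Hoxd11, which acts with Hoxa11 in kidney induction, had a fitted difference of 5.20 ± 0.30, which includes 1 rostral level below background, so no fold is given for it. It was at 0.78 in the caudal and -4.04 in the rostral E9.5 duct, -1.87 and -6.76 (not above background) in the E10.5 duct, and 3.17 and -2.71 in Wt1-GFP cells. All 3 caudal levels lay above all 3 rostral ones, and within the E10.5 pair the excess was at least 7.41-fold. The dimmer Hoxd11 probe was above background on the 3 caudal arrays (0.69, -1.55 and 2.85) and on none of the 3 rostral ones, so it gives no measured difference. Hoxa11 was at -0.80 in the caudal and -1.28 in the rostral E9.5 duct, a difference of 0.48. It was at -2.10 and -6.74 (not above background) in the E10.5 duct, at least 6.34-fold higher caudally, and at 3.20 and -6.10 (not above background) in Wt1-GFP cells, at least 144-fold higher. Hoxc11 passed the background test only in the caudal E9.5 duct, so it has no fold. No source used here gives the strand of the labelled product, and a share of the antisense transcript Hoxa11os in the Hoxa11 signal was not tested. The Hoxa11os probe lay 7602 bases from the Hoxa11 probe and was above background on 8 arrays, where Hoxa11 was on 4. The Hoxa11os probe was higher caudally by 1.07, 0.52 and 3.83 in the same pairs.

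Of the paralogue 13 genes, which pattern the hindgut end and the genital tubercle, Hoxa13 and Hoxd13 were higher in caudal Wt1-GFP cells, and Hoxb13 and Hoxc13 were below background in both parts. Hoxd13 was at -0.27 caudally and -3.71 rostrally in the E9.5 duct, and at 1.13 and -2.70 in Wt1-GFP cells. In the E10.5 duct its caudal level was below background (-3.95), beside -4.60 rostrally, and no fold can be given. Hoxa13 was at -1.73 caudally and -1.70 rostrally in the E9.5 duct, -0.17 and -2.01 in the E10.5 duct, and 0.69 and -1.56 in Wt1-GFP cells. Its dimmer probe differed in the E9.5 duct by 2.34, where the brighter one differed by -0.04. Hoxd12 was higher caudally by 0.64, 0.87 and 0.32. Hoxc12 was at -1.98 in the caudal E9.5 duct and below background rostrally, at least 5.23-fold higher.

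**Figure D2:**
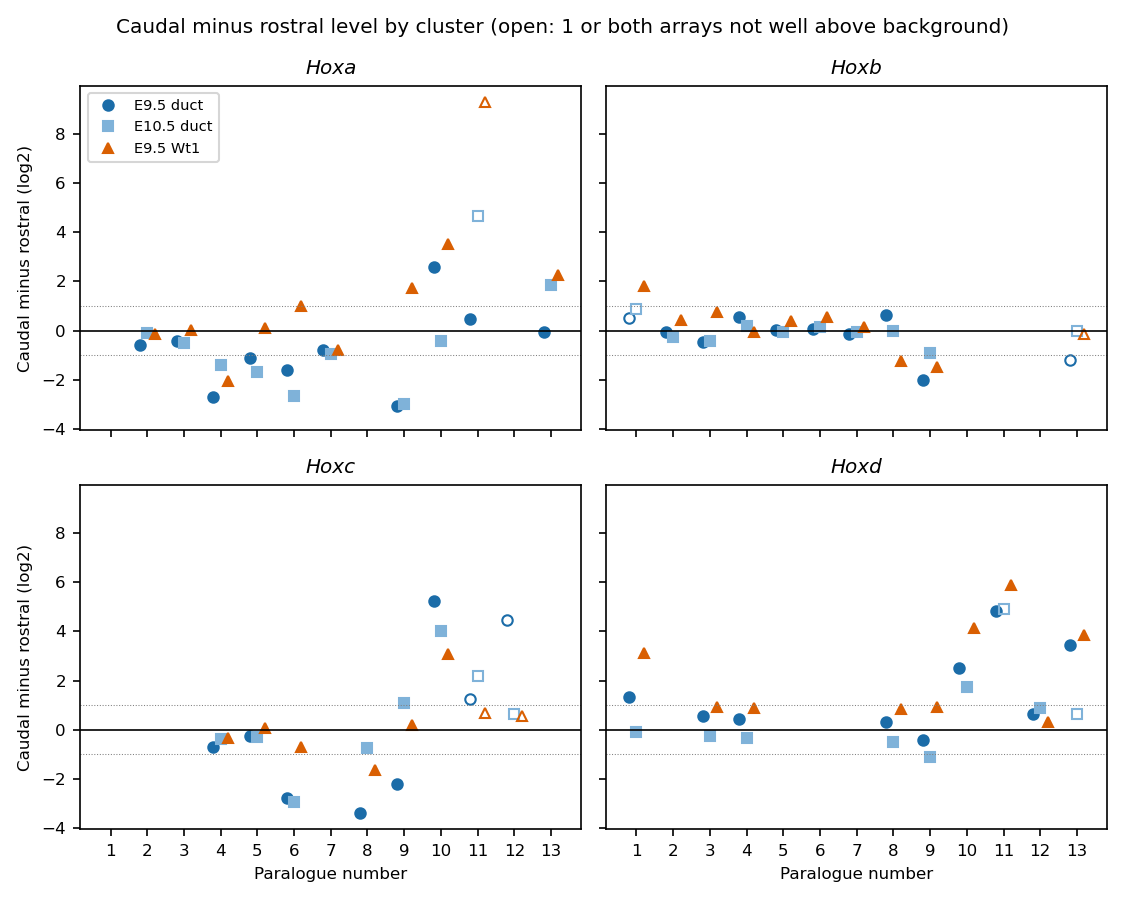
Caudal minus rostral level (log2) of the Hox genes against its paralogue number, in 1 panel per cluster; circles are the E9.5 duct, squares the E10.5 duct and triangles E9.5 Wt1-GFP cells, open symbols have 1 or both arrays not well above background, and dotted lines mark 2-fold. The highest points are at numbers 10 to 13 of Hoxa, Hoxc and Hoxd, Hoxb2 to Hoxb7 lie near 0, Hoxb dips at Hoxb9, and the lowest points are Hoxc8, Hoxa9, Hoxc6 and Hoxa4.

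The caudal excess was thus not a plain function of paralogue number. Across the 38 genes, which share their arrays and are not independent, the correlation of the difference with paralogue number was 0.31 in the E9.5 duct, 0.38 in the E10.5 duct and 0.33 in Wt1-GFP cells. It was 0.10, 0.24 and 0.19 over the 30 genes measured throughout. In Hoxb it was negative in all 3 pairs (-0.58, -0.36 and -0.67). In the single pairs, which have no test, 8 members were at least 2-fold higher caudally and 9 lower in the E9.5 duct (6.81% and 11% of all genes). The E10.5 duct gave 7 and 6 (9.16% and 8.39%) and Wt1-GFP cells 12 and 4 (6.08% and 11%). Over the 30 genes measured throughout these counts were 4 and 7, 4 and 5, and 8 and 3. Among the 15 posterior members, 7, 7 and 8 were at least 2-fold higher caudally in the 3 pairs, and 4, 2 and 1 lower. Among the 9 of them measured throughout, 3, 4 and 5 were higher and 3, 2 and 1 lower. Among the 15 central members, 0, 0 and 1 were higher and 5, 4 and 3 lower. Of the anterior members, Hoxd1 and Hoxb1 were at least 2-fold higher caudally in the fit (1.45 ± 0.70 and 1.07 ± 0.33). Hoxd1 was at 2.48 caudally and 1.13 rostrally in the E9.5 duct and at 1.86 and 1.97 in the E10.5 duct. In Wt1-GFP cells it was at 1.85 and -1.25. Hoxb1 was below background in both duct pairs. Hoxa2, Hoxa3, Hoxb2, Hoxb3 and Hoxd3 were within 2-fold in the fit. The median difference of all genes was -0.08, 0.06 and -0.03.

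Hoxb9 ran against its posterior rank. It was at 0.60 caudally and 2.60 rostrally in the E9.5 duct, 0.56 and 1.48 in the E10.5 duct, and 2.85 and 4.33 in Wt1-GFP cells, a fitted difference of -1.47 ± 0.28. Hoxb9, with its paralogue 9 partners, shapes the thoracic skeleton. Hoxc6, a gene of the forelimb and thoracic level, was at 0.56 caudally and 3.35 rostrally in the E9.5 duct, -2.04 and 0.90 in the E10.5 duct, and 3.00 and 3.72 in Wt1-GFP cells (-2.15 ± 0.55). Hoxc8, of the lower cervical and thoracic level, was at -2.96 and 0.44, -2.59 and -1.84, and -1.73 and -0.10 in the same pairs (-1.93 ± 0.60). Hoxa4, a gene of the neck region, was at -2.64 and 0.05, -2.33 and -0.95, and -0.51 and 1.54 (-2.04 ± 0.32). In each of these 4 genes the caudal part was the lower of every pair, while caudal and rostral levels overlapped across groups. Hoxa7 differed by -0.79, -0.94 and -0.79, and its caudal and rostral levels did not overlap: it was at 1.0, 0.41 and 0.65 in the caudal parts and at 1.78, 1.35 and 1.44 in the rostral ones.

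A further set of Hoxa genes differed in the duct and in Wt1-GFP cells in opposite directions. Hoxa9 was at -3.32 caudally and -0.25 rostrally in the E9.5 duct and at -2.91 and 0.09 in the E10.5 duct, but at 3.11 and 1.36 in Wt1-GFP cells. Both caudal duct samples were the lowest of the 8 arrays for this gene, and caudal Wt1-GFP cells the highest. The second Hoxa9 probe differed by -2.47 in the E9.5 duct and 1.42 in Wt1-GFP cells, where the first differed by -3.07 and 1.75; in the caudal E10.5 duct it was not above background. Hoxa6 was at 0.71 and 2.32, -0.92 and 1.72, and 2.62 and 1.62 in the same order. The duct difference minus the Wt1-GFP difference was -4.79 ± 0.45 (SE) for Hoxa9 and -3.12 ± 0.69 for Hoxa6 in limma, with adjusted p 0.81 for both and 1 residual degree of freedom. In that comparison 4 members were at least 2-fold higher and 14 lower (13.3% and 10.2% of all genes; 2 and 10 of the 30 measured throughout), and 4 of 38 members were below unadjusted p 0.05, as were 5.86% of all genes: Hoxa6, Hoxa9, Hoxc6 and Hoxd10.

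**Figure D3:**
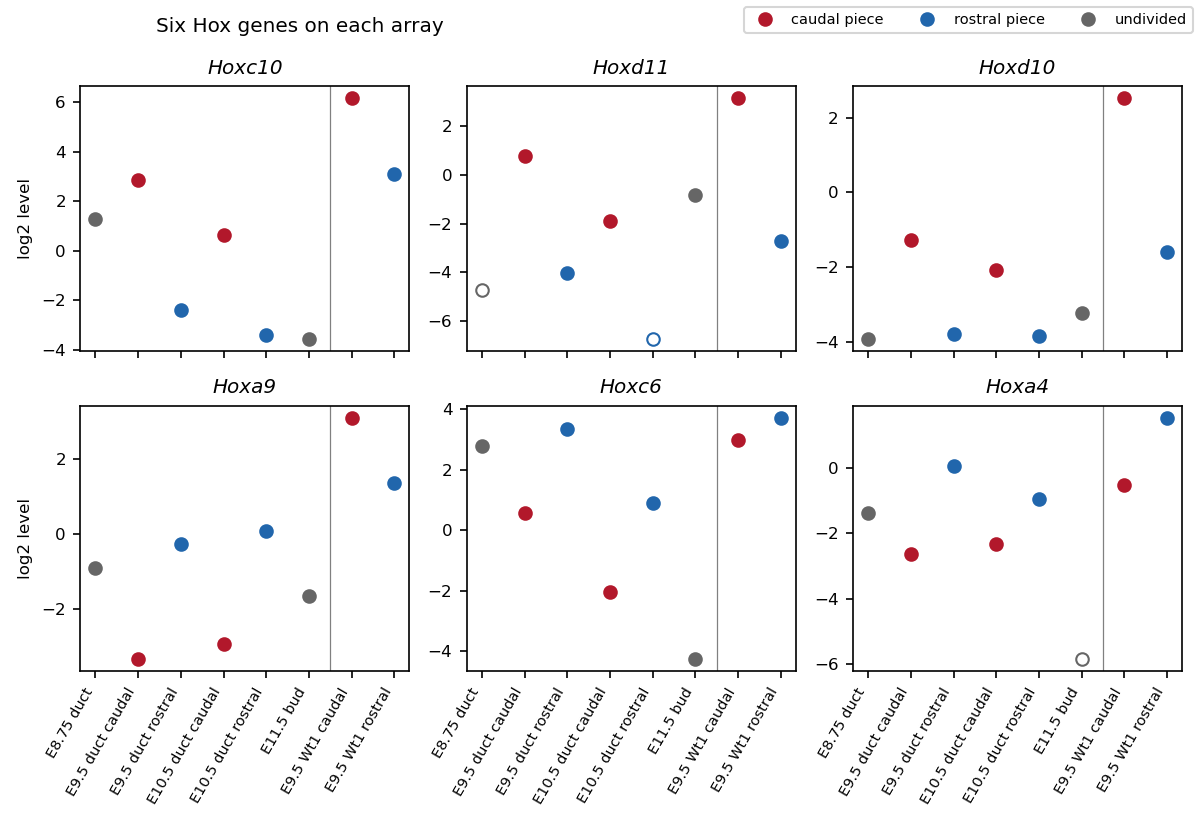
Level (log2) of Hoxc10, Hoxd11, Hoxd10, Hoxa9, Hoxc6 and Hoxa4 on each of the 8 arrays, with caudal parts in red, rostral parts in blue and undivided samples in grey; open circles are not well above background and the vertical line sets off Wt1-GFP cells. In the upper row red lies above blue within each pair, and in the lower row it lies below, except for Hoxa9 in Wt1-GFP cells.

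Other genes moved with position on the same arrays. Of 19 tested genes on a list of Hox regulators, 4 were at least 2-fold higher caudally in the fit and 3 lower, and none passed adjusted p 0.05. The highest were the Cdx genes, homeodomain factors that switch on central and posterior Hox genes in the tail end of the embryo. Cdx1 was at 0.10 caudally and -4.88 rostrally in the E9.5 duct, 0.10 and -4.25 in the E10.5 duct, and -3.07 and -6.27 in Wt1-GFP cells; the rostral E9.5 duct and rostral Wt1-GFP levels were not above background. Cdx2 differed by 3.58, 1.70 and 3.86 and Cdx4 by 4.63, 1.35 and 3.11; both were above background on 3 arrays only, so these differences have 1 or both sides below background. Evx1, the homeobox gene beside Hoxa13, was at -2.12 caudally and -6.32 rostrally in the E9.5 duct and at -0.31 and -6.07 in Wt1-GFP cells, with neither rostral level above background. Evx2, beside Hoxd13, differed by -0.39, -0.09 and 0.04. The other 7 genes beside the clusters differed by under 1 in the fit.

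Markers of other cell types also differed between the parts, and their share in the Hox values was not tested. In the E9.5 duct the summed level of 6 neural tube markers was 3.30 caudally and 6.51 rostrally, with Elavl3 and Pax6 not above background caudally and Pax6 not rostrally. In the E10.5 duct it was 4.40 caudally and 3.09 rostrally, and in Wt1-GFP cells 1.40 and 2.58. The neural tube sums mostly follow the brightest marker, Tubb3, which was at 3.17 caudally and 6.45 rostrally in the E9.5 duct. The 3 heart markers tested were each at least 2-fold lower caudally in the fit, as were Hoxa4, Hoxa6, Hoxa9, Hoxb9, Hoxc6 and Hoxc8. The heart marker sum was -2.33 caudally and 2.36 rostrally in the E9.5 duct, -4.07 and -2.87 in the E10.5 duct, and 1.23 and 1.90 in Wt1-GFP cells. The markers were split in Wt1-GFP cells: Actc1 was at 1.17 caudally and 0.61 rostrally, while Tnnt2 and Myl7 differed by -3.14 and -5.8. Myl7 was not above background in the caudal E9.5 duct or caudal Wt1-GFP cells. At E10.5 Tnnt2 was not above background rostrally, and none of the 3 was caudally. For lateral plate and limb markers the sum was -0.20 caudally and 0.19 rostrally in the E9.5 duct, -1.55 and -2.83 in the E10.5 duct, and 2.46 and 1.38 in Wt1-GFP cells. In the E10.5 duct only Hand1 and Prrx1 were above background caudally and only Hand1 rostrally. In Wt1-GFP cells the hindlimb factors Tbx4 and Pitx1 were higher caudally by 4.12 and 4.22, with Tbx4 not above background rostrally, and the forelimb factor Tbx5 was higher rostrally, at -5.68 (not above background) caudally and 0.14 rostrally. In whole sorted samples, fewer cells expressing a gene and less RNA per cell cannot be told apart. The E9.5 duct pair lay within slide row 1 and the Wt1-GFP pair within slide row 2, so their differences are within-row values; the E10.5 pair was split between the rows.

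At E9.5, Hoxb7-GFP duct cells and Wt1-GFP cells differed by cluster as well as by number. In the duct, Hoxb4 to Hoxb7, Hoxd3, Hoxd4 and Hoxd8 stood higher in both parts, and posterior genes and many of Hoxa and Hoxc stood lower. Both duct samples lay above both Wt1-GFP samples for 8 members: Hoxb3 to Hoxb7, Hoxd3, Hoxd4 and Hoxd8. This share (21.1%) was close to that of all genes (20.0%), so the count itself does not set the members apart. Both duct samples lay below both Wt1-GFP samples for 15 (39.5%, with 27.9% of all genes), of which 7 were Hoxa, 3 Hoxb, 4 Hoxc and 1 Hoxd genes. In the fit 6 members were at least 2-fold higher in the duct and 13 lower, where 9.53% and 7.02% of all genes were; of the 30 measured throughout, 6 were higher and 9 lower. Part by part, with no test, 7 members were at least 2-fold higher and 20 lower in the caudal duct than in caudal Wt1-GFP cells (12.7% and 10.2% of all genes), and 8 higher and 11 lower rostrally (11.6% and 8.77%). None passed adjusted p 0.05 (limma, lowest 0.17 over all genes), and 14 members (36.8%, with 13.3% of all genes) were below unadjusted p 0.05. The SEs and p-values of this comparison also rest on how the caudal-rostral difference varied between pairs. They do not measure variation between replicates of a reporter. With an intensity trend in limma's prior variance 5 members passed, where 2.14% of all genes did: Hoxb6 (adjusted p 0.026), Hoxc10 (0.029), Hoxb9 (0.039), Hoxb5 (0.045) and Hoxc4 (0.047).

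Hoxb7, the gene whose promoter drives the duct reporter, stood at 2.30 and 2.44 in caudal and rostral E9.5 duct cells, against 1.63 and 1.5 in Wt1-GFP cells. The difference was 0.81 ± 0.21, a 1.75-fold excess, so its transcript was present in both sorts. Hoxb6, its neighbour, was at 3.73 and 3.67 in the duct, against 2.32 and 1.75 in Wt1-GFP cells (1.66 ± 0.24, 3.16-fold). Hoxb5 was at 2.63 and 2.62, against 1.59 and 1.18 (1.24 ± 0.24). For Hoxb4, Hoxb5, Hoxb6 and Hoxb7, all 6 Hoxb7-GFP samples of every stage lay above both Wt1-GFP samples, 4 of 38 members where 6.02% of all genes did. Of the Hoxd genes, Hoxd3 was at 3.30 and 2.73 in the duct, against 2.02 and 1.11 in Wt1-GFP cells (1.45 ± 0.37). Hoxd8 was at 2.38 and 2.06, against 1.32 and 0.46 (1.33 ± 0.40). Hoxd1 was at 2.48 and 1.13, against 1.85 and -1.25, which overlap. The dimmer probe of Hoxb3 differed by -0.03 and -0.19 from Wt1-GFP cells in the matched caudal and rostral parts, where the brighter one differed by 0.22 and 1.45.

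Posterior genes ran the other way. None of the 15 posterior members was at least 2-fold higher in the duct in the fit, and 9 were lower. Among the 9 measured on all arrays, all 9 differences were below 0 and 7 at least 2-fold, with a median of -2.18, beside a median of -0.05 over all genes. Hoxc10 had the largest difference: 2.85 and -2.39 in the caudal and rostral duct, against 6.17 and 3.1 in Wt1-GFP cells (-4.41 ± 0.60, 21.2-fold lower). Hoxa9 was lower by -6.43 in the caudal and -1.61 in the rostral part, and Hoxa10 by -3.68 and -2.76. Hoxd10 was at -1.28 and -3.79 in the duct, against 2.52 and -1.60 in Wt1-GFP cells (-2.99 ± 0.66), and the samples overlap. Hoxc9 was at -0.41 and 1.81, against 2.97 and 2.79 (-2.18 ± 0.91). At the other end of the paralogue order, Hoxb1 was at least 7.10-fold lower in the duct. Over all 6 Hoxb7-GFP samples, 9 members lay below both Wt1-GFP samples (23.7%, with 8.88% of all genes): Hoxa2, Hoxa9, Hoxa10, Hoxb1, Hoxc4, Hoxc5, Hoxc9, Hoxc10 and Hoxd12.

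**Figure D4:**
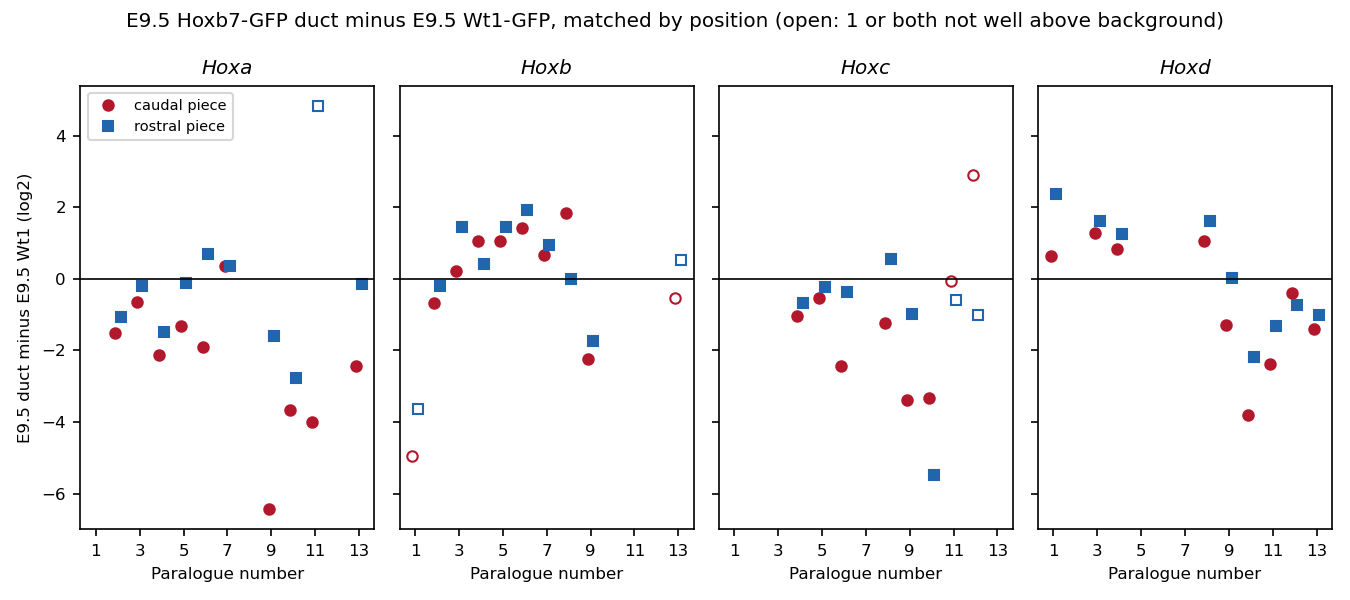
E9.5 Hoxb7-GFP duct level minus E9.5 Wt1-GFP level (log2) of the Hox genes against paralogue number, in 1 panel per cluster; red circles compare the caudal parts and blue squares the rostral parts, and open symbols have 1 or both arrays not well above background. Hoxb4 to Hoxb7 and Hoxd3, Hoxd4 and Hoxd8 lie above 0 in both parts, and nearly all points of paralogues 9 and 10 lie below 0, down to -6.43 for Hoxa9 caudally.

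The reporters lay in different slide rows at E9.5, the duct samples in row 1 and the Wt1-GFP samples in row 2, so no within-row value exists. Only the E10.5 pair was split between the rows. A slide row term therefore rests on how that pair's caudal-rostral difference departs from those of the other pairs. It cannot separate a row effect from a change of that difference at E10.5. With slide row as a term in the fit, 3 members instead of 6 were at least 2-fold higher in the duct: Hoxb6 (1.48), which was among the 6, and Hoxb8 (1.19) and Hoxc8 (1.42), which were not. Hoxb5 was then at 0.97 and Hoxc10 at -4.54, while Hoxd3 was at 0.46, Hoxd4 at 0.02, Hoxd8 at 0.26 and Hoxd1 at -0.84. Limb and lateral plate markers had summed levels of -0.20 and 0.19 in the caudal and rostral duct, against 2.46 and 1.38 in Wt1-GFP cells, with Tbx5 and Hand2 not above background in the caudal duct, Pitx1 and Hand1 not in the rostral duct, Tbx5 not in caudal and Tbx4 not in rostral Wt1-GFP cells; endothelial markers were at least 2-fold higher in the duct for 4 of 5 (median 2.65) and neural tube markers for 3 of 6 (median 0.94). The part of these cell types in the Hox values was not tested.

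Cofactors of the Hox proteins differed too. Of 9 genes that encode Pbx, Meis and Pknox homeodomain partners of Hox proteins, 1 was at least 2-fold higher in the duct in the fit and 4 lower, with a median of -0.94 and none past adjusted p 0.05. Meis1 was at 0.21 and 2.29 in the caudal and rostral duct, against 3.76 and 3.83 in Wt1-GFP cells, and Meis2 at 0.16 and 2.61, against 3.75 and 3.82. Both were lower in each duct sample than in either Wt1-GFP sample. Over the duct stages Meis1 was at 1.63 at E8.75, at 0.21 and 2.29 at E9.5, at -1.93 and -2.19 at E10.5 and at -2.48 in the E11.5 bud. Aldh1a2, which makes retinoic acid, an activator of Hox genes, had levels of -1.22 caudally and -0.37 rostrally in E9.5 duct cells, and of 3.75 and 3.82 in Wt1-GFP cells. Of 7 genes that Hox proteins are known or thought to act on in this lineage, 2 were at least 2-fold higher in the duct and 3 lower. Ret, the receptor of the bud tip, was at 2.23 and -0.66 in the duct and not above background in Wt1-GFP cells, where Itga8 and Six2, genes of the nephrogenic mesenchyme, were the higher.

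Across the duct stages the clusters went different ways. From E8.75 to the E11.5 bud, central Hoxa genes and Hoxc6, Hoxc10 and Hoxc4 stood lower at the later stage, Hoxd8 and Hoxd9 higher, and most of Hoxb close to where it began. These end points are 1 array each, so no replicate supports the difference between them. The E8.75 array lay in slide row 1 and the bud array in slide row 2, so stage and row cannot be told apart here. Of the parts, the caudal E9.5 array lay in row 1 and the caudal E10.5 array in row 2. Both rostral duct arrays lay in row 1. The SEs and p-values of the stage steps rest on how the caudal-rostral difference varied between pairs, not on replicates of a stage. Bud minus E8.75 was at least 2-fold higher for 7 members and lower for 12, where 15.1% and 12.6% of all genes were; of the 30 measured throughout, 4 were higher and 11 lower. By cluster it was lower for 6 of 11 Hoxa genes and 5 of 8 Hoxc genes and for 0 of 9 Hoxd genes, and higher for 4 of 9 Hoxd genes. No stage step gave a member past adjusted p 0.05, and at unadjusted p under 0.05 there were 6 members in E9.5 against E8.75 (15.8%, with 15.6% of all genes), 6 in E10.5 against E9.5 (15.8%, with 7.46%) and 9 in E11.5 against E10.5 (23.7%, with 12.6%).

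Hoxd9 was at 1.89 at E8.75, 4.34 and 4.75 in the caudal and rostral E9.5 duct, 4.91 and 6.03 in the E10.5 duct and 6.13 in the bud. Hoxd8, its neighbour, was at -0.65, then 2.38 and 2.06, then 2.18 and 2.65, and 2.75 in the bud. For both, every later sample lay above the E8.75 one. Hoxd8 differed by 2.87 ± 0.49 in the first step (7.33-fold; adjusted p 0.23, and 0.049 with the intensity trend, where 1.24% of all genes passed). Hoxb7 was at 1.64, 2.30 and 2.44, 3.17 and 3.22, and 3.28 over the same samples, the values of each stage lying above those of the stage before. Hoxd11 was not above background at E8.75 and was at -0.84 in the bud, at least 14.1-fold higher, but its dimmer probe was not above background in either sample. In the caudal E10.5 duct both probes were above background, at -1.87 and -1.55. Hoxd11 has therefore no agreed level in the bud.

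Hoxc6 had the largest difference among the members over the whole course. It was at 2.79 at E8.75, 0.56 and 3.35 in the caudal and rostral E9.5 duct, -2.04 and 0.90 in the E10.5 duct and -4.26 in the bud, a bud minus E8.75 difference of -7.05. Each E10.5 part lay below the same part at E9.5, and the bud below all of them. Hoxa6 was at 0.81, 0.71 and 2.32, -0.92 and 1.72, and -2.37 in the bud. Hoxa5 was at 1.32, -0.14 and 0.97, -1.29 and 0.38, and -1.83. Hoxa4 was at -1.39, -2.64 and 0.05, -2.33 and -0.95, and below background in the bud, at least 7.88-fold lower than at E8.75. These are neighbours in the middle of their cluster, and in each of the 3 the bud had the lowest level. Hoxc4 was at 5.17, 4.98 and 5.69, 4.52 and 4.89, and 3.48. Hoxc10 was at 1.28, 2.85 and -2.39, 0.63 and -3.39, and -3.58, so its bud level was close to the rostral duct and below the caudal duct.

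**Figure D5:**
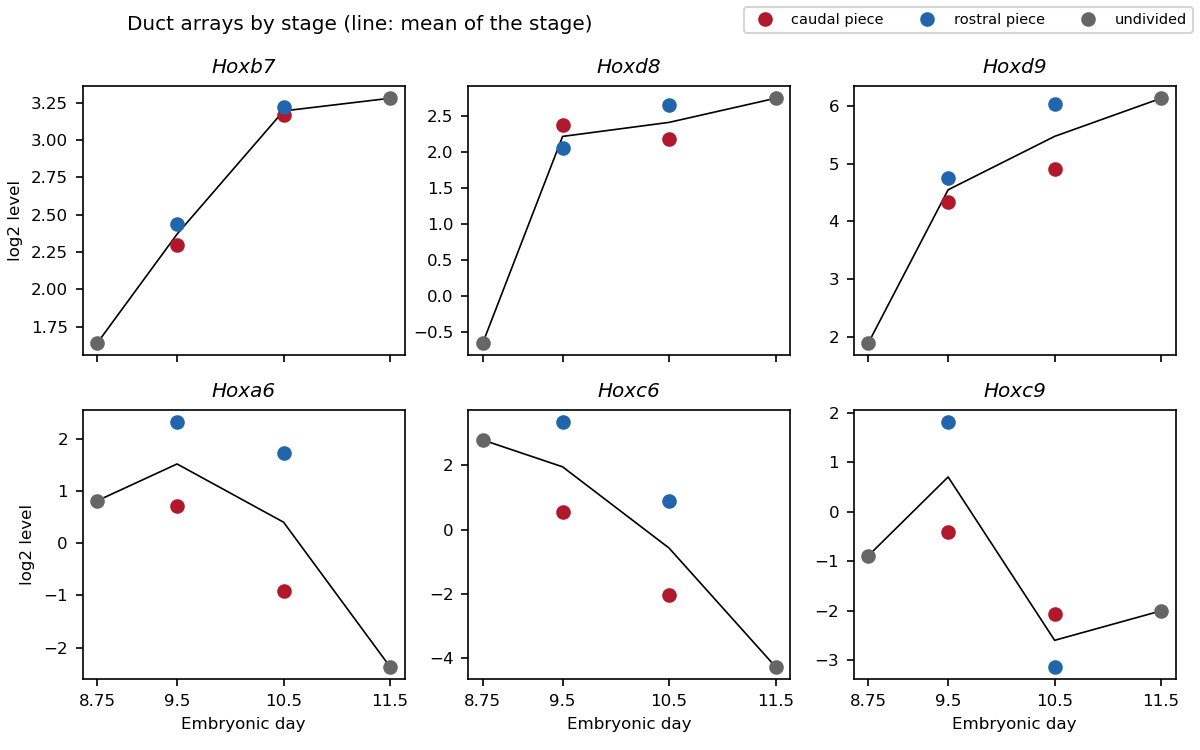
Level (log2) of Hoxb7, Hoxd8, Hoxd9, Hoxa6, Hoxc6 and Hoxc9 in the Hoxb7-GFP samples against embryonic day, with caudal parts in red, rostral parts in blue, undivided samples in grey and a line through the mean of each stage. Hoxb7, Hoxd8 and Hoxd9 are lowest at E8.75, Hoxa6 and Hoxc6 are lowest in the E11.5 bud, and Hoxc9 is lower at E10.5 and E11.5 than at E9.5.

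Hoxc9, Hoxd13 and Hoxa11 had their highest duct level in an E9.5 sample. This was not particular to them. Many other members did too, among them Hoxa6, Hoxc4, Hoxc6, Hoxc10 and Hoxd3, while Hoxb7 and Hoxd9 were highest in the bud. Hoxc9 was at -0.89 at E8.75, -0.41 and 1.81 in the caudal and rostral E9.5 duct, -2.06 and -3.13 in the E10.5 duct and -2.0 in the bud, so both E10.5 samples lay below both E9.5 samples (-3.29 ± 0.91, 9.81-fold). Hoxd13 was at -0.27 in the caudal E9.5 duct and between -4.60 and -3.48 in the other 5 duct samples. Hoxa11 was below background at E8.75, at -0.80 and -1.28 at E9.5, at -2.10 in the caudal E10.5 duct and below background in the rostral E10.5 duct and the bud. In the E10.5 against E9.5 step, 0 members were at least 2-fold higher and 9 lower, where 6.48% and 6.30% of all genes were; of the 30 measured throughout, 0 were higher and 5 lower. By part, with no test, E10.5 minus E9.5 gave 1 higher and 10 lower caudally (10.3% and 7.91% of all genes) and 2 higher and 10 lower rostrally (8.26% and 10.6%). Without the rostral E9.5 array 3 members were at least 2-fold higher in this step, and without the caudal E10.5 array 4. Hoxb9 was at 3.40 at E8.75, 0.60 and 2.60 at E9.5, 0.56 and 1.48 at E10.5 and 1.12 in the bud. The E9.5 against E8.75 step had 10 members at least 2-fold higher and 5 lower (12.6% and 10.9% of all genes; 6 and 4 of the 30 measured throughout). The E11.5 against E10.5 step had 3 and 10 (10.9% and 10.7%; 0 and 7 of the 30), and the bud minus the caudal E10.5 duct alone 6 and 10 (11.4% and 11.2%). Without the rostral E10.5 array the E11.5 step had 8 higher members, and without the caudal one 5. In the bud Hoxb13 and Hoxc12 were above background, at -3.68 and -4.0, and Hoxb13 was so on no other array.

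The E8.75 array had the endothelial and endoderm levels given above and names no Flk1 selection, and the part of either in the first stage step was not tested. Of the 19 regulators tested, bud minus E8.75 was at least 2-fold higher for 4 and lower for 9. Lin28a, an RNA-binding protein of early embryos that holds back late development, was at 4.14 at E8.75, 2.20 and 3.02 in the caudal and rostral E9.5 duct, 1.29 and 0.94 at E10.5 and -1.11 in the bud. Nr6a1, an orphan nuclear receptor that acts on trunk Hox genes, was at 2.60, then 0.75 and 0.72, then -0.61 and -0.98, and -2.01. Gdf11, a signal that promotes posterior Hox genes in the trunk, was at -0.96, then 0.59 and 0.99, then 0.65 and 1.38, and 1.59. For these 3 the E8.75 sample lay at one end of the range of the duct samples and the bud at the other. The same held for Aldh1a2, Cyp26a1, Egr2, Rara and Rarb, but not for all regulators. Bmi1 and Ezh2, Polycomb proteins that keep Hox genes silent, were lower between than at either end: Bmi1 was at 1.83, then 0.62 and 0.90, then 1.02 and 0.38, and 2.45, and Ezh2 at 2.84, then 2.12 and 1.57, then 1.77 and 0.97, and 2.53. Cyp26a1, which breaks down retinoic acid, was at 2.17 at E8.75 and below background in the bud, and Egr2, a hindbrain gene, was below background at E8.75 and at 1.85 in the bud.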

How the data were processed

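Each sample was 1 array read in 1 colour. Per the file headers, the intensity deposited for each spot is the processed signal of Agilent Feature Extraction, version 10.7.3.1, background-subtracted and detrended, beside the raw mean signal, the local background and a flag for spots well above background. Per the labels' protocols, sorted cells gave total RNA that was amplified with a NuGEN Ovation kit and labelled with Cy3. The deposited matrix of log2 values was used as an alternative; its scale is not stated, and it followed log2 of the processed signal over the 75th percentile at r = 0.9998, centred on each probe. Probe positions in the files are of build mm9.

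Control and outlier spots were left out, repeated spots averaged, and log2 of each array's 75th percentile subtracted. Testing took probes flagged well above background on 1 or more arrays, each gene by its brightest probe (29544 genes). limma 3.58.1 in R 4.3.3 fitted 5 groups and a position term (2 residual degrees of freedom) over all genes, with Benjamini-Hochberg adjustment at 0.05; a stage with a single array is taken to vary as the rest do. A further fit added position within Wt1-GFP. Single pairs of arrays have no test. "At least N-fold" sets a level against the dimmest spot well above background on the other array (-4.76 to -3.95 on the log2 scale), or the gene's own level if higher. The number of arrays limits the precision. The fit was tested on simulated data.

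The members, the lists of other genes and the rule for naming genes (every Hox gene, with values by array for Hoxb7, for members at the edge of detection in their cluster and for the 5 largest fitted differences each way, and other genes from fixed lists) were chosen with earlier results of these data known. The values of 1 member are not reported here, and the counts over members include it. All 8 arrays lay on 1 slide, in 2 slide rows, with 1 scan time. Arrays carry no replicate numbers in the labels. RefSeq promoter windows (GRCm38.p6) came from a table. Alternatives covered background correction, normalization, filters, floor, prior variance, slide row, position term, probe choice and each array left out. Tables and figures used Python 3.11.15, pandas 2.3.3 and matplotlib 3.10.9.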

Additional observations from a re-analysis of the deposited data

Results flagged for a closer look

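In 10 members the caudal minus rostral difference had one sign in both duct pairs and the opposite sign in Wt1-GFP cells. Values below are log2 differences in the E9.5 duct, the E10.5 duct and Wt1-GFP cells, in that order. By this sign rule the difference was not tested. The separate limma test of the duct difference minus the Wt1-GFP difference gave adjusted p 0.81 to 1.0 for these members. The largest values were those of Hoxa9 (-3.07, -3.0 and 1.75), Hoxa6 (-1.61, -2.64 and 1.0), Hoxa5 (-1.11, -1.67 and 0.10) and Hoxd9 (-0.41, -1.12 and 0.92). The other members had small values: Hoxa3 (-0.41, -0.49 and 0.02), Hoxb2 (-0.04, -0.28 and 0.44), Hoxb3 (-0.46, -0.41 and 0.77), Hoxb7 (-0.13, -0.05 and 0.13) and Hoxc5 (-0.24, -0.29 and 0.07). Hoxb4 ran the other way (0.57, 0.20 and -0.06).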

How the results depend on the processing

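Of 91 member differences of at least 2-fold, recomputed 1408 times, 1402 values kept their direction. The 6 that reversed were Hoxd1 in duct against Wt1-GFP with slide row as a term (-0.84), Hoxb13 in E9.5 against E8.75 on floored levels (0.11), Hoxc12 without the caudal E9.5 array in E9.5 against E8.75 (-0.74, and 3.14 without the rostral one) and in E10.5 against E9.5 (0.08, and -3.8 without the rostral one), and Hoxa6 in E10.5 against E9.5 with slide row as a term (0.05) and without the caudal E10.5 array (0.05, and -2.28 without the rostral one). Hoxb13 and Hoxc12 were below background on most of the arrays compared. Other causes were not tested. The 91 were chosen as large in these same data, and some recomputations cannot change a direction. The intensity trend alters only the variance, and leaving out the position term or an array outside a comparison can leave the difference unchanged. The slide row term rests on the E10.5 pair and repeats fits without an E10.5 array in some comparisons. The count of kept directions is therefore no measure of robustness. Genes passing adjusted p 0.05, 0 as reported, numbered in duct against Wt1-GFP 93 with normexp background, 632 with the intensity trend (5 of them Hox genes) and 8 without the position term, and in E9.5 against E8.75 18, 367 (1 Hox gene) and 16. Leaving out the position term treats the caudal and rostral parts of a group as its replicates, though they are different parts. No member passed in that fit. The interaction gave 1 gene with the trend. Members at least 2-fold different also moved: with normexp background to 2 lower in E9.5 against E8.75, to 1 higher and 5 lower in E11.5 against E10.5, and to 1 higher in the interaction; on floored levels to 1 higher in E11.5 against E10.5; with slide row as a term to 3 higher in duct against Wt1-GFP, 4 higher in E10.5 against E9.5 and 8 higher in E11.5 against E10.5. Leaving out 1 array at a time gave 3 to 8 members lower in E9.5 against E8.75 (3 without the caudal and 8 without the rostral E9.5 array), 0 to 4 higher in E10.5 against E9.5, and 3 to 8 higher in E11.5 against E10.5 (8 without the rostral and 5 without the caudal E10.5 array). The alternatives of the interaction were chosen after seeing the data. Genes near background, such as Hoxc11, Hoxc12 and Hoxb13, have only bounds or no fold.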

Other observations

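Between the Hox genes lie other transcribed probes. By the probe positions in the files (mm9), the member probes span chr6:52105392-52209039 (Hoxa), chr11:96057854-96228510 (Hoxb), chr15:102759058-102867272 (Hoxc) and chr2:74509248-74603059 (Hoxd). These spans hold 6, 22, 6 and 5 probes of other annotations, of which 6, 20, 5 and 5 were well above background on at least 1 array. In the gap between Hoxb9 and Hoxb13, Gm53 was at 1.44 in caudal and -2.19 in rostral Wt1-GFP cells, at -2.21 and -3.57 in the E9.5 duct and at -4.52 and -2.03 in the E10.5 duct. Its level in caudal Wt1-GFP cells was the highest of the 8 arrays, while the neighbouring Hoxb9 was lower caudally in that pair and Hoxb13 was below background. Near Hoxd4, AI448005 had levels of 4.95 caudally and 4.07 rostrally in duct cells of E9.5, and of 3.37 and 3.03 in Wt1-GFP cells. The 5 probes annotated HOTAIR, between Hoxc11 and Hoxc12, differed between caudal and rostral Wt1-GFP cells by -6.47 to 1.0 and give no common direction.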
